A study of Mus musculus with 6 samples.

Results

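The humanlincRNA probes are a set of 1092 probes on a mouse lncRNA array, 542 marked + and 550 marked -, among 60823 probes outside the control spots. They were picked by name alone, as every non-control probe whose name starts with humanlincRNA, and no measured value decided which probes belong. The set itself was chosen with earlier results of these data known. A name holds a number between 2 and 2514 and a strand mark. The 1092 probes carry 557 different numbers, of which 535 have both a + and a - probe and are called strand pairs here, while 22 have a single probe, 7 of them + and 15 of them -. Each probe has 1 spot per array.

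RNA was compared between small extracellular vesicles from brown fat (sEV-BAT) and from white fat (sEV-WAT), with 3 arrays in each group. All vesicles came from C57BL/6 male mice with a labelled age of 6 to 8 weeks, and no treatment or genetic change is labelled in either group. Brown fat was taken from between the shoulder blades and white fat from the groin, both were minced and kept in culture, and the vesicles released into the medium were collected by filtration and ultracentrifugation, so the cells that released them are all those of the fat pad. Each array held total RNA from vesicles of several pooled mice, amplified by random priming into Cy3-labelled cRNA and hybridised to the Arraystar Mouse LncRNA Array V4. Which sEV-BAT and sEV-WAT arrays came from the same pool of mice is not stated in the sources used here.

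Long noncoding RNAs are transcripts without a protein-coding reading frame, and long intergenic noncoding RNAs (lincRNAs) are those that lie between protein-coding genes. Many lincRNAs were first catalogued from chromatin marks of active transcription, which show where a locus is transcribed but not from which DNA strand. A pair of probes, one for each strand, lets an array measure such a locus without knowing its orientation. Small extracellular vesicles carry RNA out of the cell that releases them, and brown fat, which burns lipid to make heat, and white fat, which stores it, were compared here to learn which lncRNAs their vesicles hold in unequal amounts. The labels and methods do not say which genome strand the marks stand for or where each lincRNA lies, so the probes are named as in the files, and their positions and sequences were not analysed here.

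No spot of the array was saturated on any array. The sEV-BAT arrays were brighter as a whole before normalization, with a median intensity over all probes of 81.2 to 92.1 against 57.1 to 58.5 on the sEV-WAT arrays, and quantile normalization removes that gap by giving every array the same distribution. Differences are therefore relative to the other probes of the array, and fewer vesicles of a kind cannot be told apart from less RNA per vesicle. Slide 1 held sEV-BAT 1 and all 3 sEV-WAT arrays, and slide 2 held sEV-BAT 2 and 3. Of 23 markers of brown and white adipocytes, macrophages, endothelium, blood and muscle that were looked for, the tables used here name a probe for 1, Ppara, a regulator of fatty acid oxidation that is abundant in brown fat. Its probe read 6.78, 4.94 and 7.62 in sEV-BAT and 4.72, 5.10 and 4.75 in sEV-WAT, as normalized log2 intensity, so that sEV-BAT 2 lay among the sEV-WAT values (difference 1.59, limma adjusted p = 0.172).

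Most humanlincRNA probes gave a signal well above the background of the array in both kinds of vesicle, and more did so in sEV-BAT. The scanner software marked 903, 896 and 941 of the 1092 probes as well above background in sEV-BAT and 820, 822 and 842 in sEV-WAT. Every sEV-BAT array thus detected more of them than any sEV-WAT array, with means of 913.3 ± 24.2 and 828 ± 12.2 probes (SD, n = 3 in each group), or 83.6% ± 2.22 and 75.8% ± 1.11. The same step was present over all probes, at 91.2% ± 1.86 and 85.4% ± 0.845, and over the 639 mouselincRNA probes, at 83.9% ± 1.89 and 76.8% ± 1.11. The overall brightness of the arrays, given above, moved with this step, and its part in it was not tested. The step shrank from 85.3 to 54 probes with the weaker criterion of a positive and significant signal.

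The - probes were detected slightly more often than the + probes in both groups. In sEV-BAT 82.8% ± 2.46 of the + probes and 84.5% ± 2.11 of the - probes were well above background (SD, n = 3), and in sEV-WAT 74.3% ± 0.832 and 77.3% ± 1.55. Over the 6 arrays together, 772 of the 1092 probes were detected on every array, 117 on none and 203 on 1 to 5 of them. The share detected on none, 10.7%, compares with 10.5% of the mouselincRNA probes and 5.15% of all probes. Over the 75 MM9LINCRNAEXON probes, another lincRNA set, it was 6.67%. At least 3 of the 6 arrays detected 892 probes, 439 of them + and 453 of them -, and these entered the tests between groups, while the rest are described here by detection alone.

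As a class these lincRNAs were dim, and so were the other lincRNA probe sets of the array. Averaged over the 6 arrays, the normalized log2 intensity had a median of 5.25 over the mouselincRNA and 5.42 over the MM9LINCRNAEXON probes. For the humanlincRNA probes the median was 5.04 against 6.14 over all probes, with quartiles of 3.51 and 7.58. The dimmest 5% lay below 1.53 and the brightest 5% above 11.97, and the range ran from 0.96 to 15.38. On the single arrays the median over the set was 5.00 to 5.15. Before normalization the median intensity of the set was 39.1 to 44.3 units on the sEV-BAT arrays and 26.1 to 28.0 units on the sEV-WAT arrays, which did not overlap, as was also the case over all probes. Only 63 of the 1092 probes, or 5.77%, belonged to the brightest 10% of the array.

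The 5 brightest members were among the brightest probes of the whole array, and their group means differed by 0.43 log2 units at most. Some other bright members, given below, differed 2-fold or more. The brightest was humanlincRNA2397-, rank 424 of 60823, with log2 intensities of 15.34, 15.18 and 15.23 in sEV-BAT and 15.43, 15.53 and 15.54 in sEV-WAT. All sEV-WAT values lay above all sEV-BAT values, by 0.25 on average (limma adjusted p = 0.137). Next came humanlincRNA0284+ at 15.28, 15.09 and 15.18 in sEV-BAT and 15.45, 15.46 and 15.51 in sEV-WAT, again without overlap (difference -0.29, limma adjusted p = 0.102). humanlincRNA1119+ read 15.36, 15.33 and 15.44 in sEV-BAT and 15.30, 15.23 and 15.28 in sEV-WAT, and humanlincRNA2163- read 15.33, 15.24 and 15.40 in sEV-BAT and 15.24, 15.29 and 15.31 in sEV-WAT. These 2 stayed within 0.11 and 0.04 of each other between the group means (limma adjusted p = 0.438 and 0.779). The fifth, humanlincRNA0970-, had 15.10, 15.18 and 15.41 in sEV-BAT and 14.92, 14.76 and 14.71 in sEV-WAT, which did not overlap (difference 0.43, limma adjusted p = 0.075).

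The other strand of the 5 brightest probes ranged from background to high signal. The partner of humanlincRNA2397- was bright as well, at 12.72, 12.50 and 12.47 in sEV-BAT and 13.01, 13.64 and 13.76 in sEV-WAT. All 3 sEV-WAT values were higher, the mean difference being -0.90 (limma adjusted p = 0.0555). humanlincRNA2163+ averaged 9.18 over the 6 arrays, humanlincRNA1119- 6.23 and humanlincRNA0970+ 3.99. humanlincRNA0284- was well above background on 2 sEV-BAT arrays and on no sEV-WAT array, and was not tested.

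Replicate arrays agreed more closely for bright members than for dim ones. Over the 892 probes tested, the median SD of the log2 intensity between replicates was 0.198 in sEV-BAT and 0.174 in sEV-WAT, and 525 probes had the larger SD in sEV-BAT. In the brighter 446 probes these medians were 0.158 and 0.113, and in the dimmer 446 they were 0.241 and 0.227. The number of arrays, 3 in each group, limits the precision of every difference below, and nothing but the group labels and the pooling of mice says how far the replicates are independent.

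The probes of a pair usually differed widely in signal, and either mark could be the brighter one. Both probes of a pair differ in sequence and so in how well they bind, which means that the difference between their signals describes the probes and is not a ratio of RNA amounts. Both partners were past the detection filter in 356 of the 535 pairs, only the + probe in 77, only the - probe in 82 and neither in 20. In 38 pairs all 6 arrays detected the + probe and none the - probe, in 41 pairs the reverse held, and in 266 pairs both probes were detected by all 6.

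Over the 356 pairs, the strand difference, that is the log2 intensity of the + probe minus that of the - probe, had a median of -0.10 when averaged over the 6 arrays, with quartiles of -2.12 and 2.62. The + probe was the brighter of the pair in 174 and the - probe in 182. That median was 0.14 over the 266 pairs detected on all 6 arrays in both probes, so its sign depends on the filter. Its size regardless of direction had a median of 2.40, far above the median SD of the strand difference between replicates, 0.299 in sEV-BAT and 0.262 in sEV-WAT. The + probe was brighter by at least 1 log2 unit in 133 pairs and the - probe in 141. At 3 units these counts were 81 and 68, and at 5 units 38 and 36. The median level of the brighter partner was 7.89 and that of the dimmer partner 4.52.

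The direction of the preference held from array to array. The + probe was brighter on all 6 arrays in 151 pairs and the - probe in 160, which leaves 45 pairs whose sign differed among arrays, none with a mean beyond 2.41 in size. Over the 356 pairs, the group means of the strand difference in sEV-BAT and sEV-WAT had a Pearson r of 0.986. These points share their probes, so the binding of each probe enters both axes. The signals of the + and - probes themselves had an r of 0.046 across the same pairs. Pairs are not independent replicates, and both values are descriptions.

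At the ends of this scale, which holds only pairs with both probes past the detection filter, a bright probe was paired with a dim one. Pairs outside it can be further apart, as at humanlincRNA0284, where the + probe averaged 15.33 and the untested - probe 2.90. In the 5 pairs at either end the brighter probe averaged 12.44 to 15.01 and the dimmer 3.18 to 4.65, and in 8 of these 10 pairs the dimmer probe was still well above background on all 6 arrays. The largest preference for - was at humanlincRNA0970, where the strand difference was -11.28, -11.10 and -11.36 in sEV-BAT and -10.44, -10.99 and -10.95 in sEV-WAT. Both groups held the same direction on every array, with the larger gap in sEV-BAT (change -0.45, limma adjusted p = 0.222). The next were humanlincRNA1006, humanlincRNA1398, humanlincRNA2314 and humanlincRNA0341, with means over the 6 arrays of -10.84, -9.15, -9.07 and -8.93. The largest preference for + was at humanlincRNA2330, with 10.98, 10.39 and 11.99 in sEV-BAT and 10.79, 10.46 and 10.59 in sEV-WAT. The values of the groups overlapped, and its - probe was well above background on 4 of the 6 arrays. humanlincRNA0997, humanlincRNA1921, humanlincRNA2296 and humanlincRNA2242 followed, with means of 10.31, 10.08, 9.97 and 9.76. In all 10 pairs the change between the groups failed the limma test at an unadjusted p of 0.05.

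In 17 of the 356 pairs the preference had a different sign in the group means of sEV-BAT and sEV-WAT, and in 5 of these every array lay on its own group's side. These 5, picked after their values were seen, were humanlincRNA0717, humanlincRNA1396, humanlincRNA1524, humanlincRNA1680 and humanlincRNA2514. The share of such pairs over all strand pairs was not counted. Groups that do not overlap are common there, with 18.6% of pairs higher and 15.2% lower in sEV-BAT. The strand differences of these 5 were small. The clearest, humanlincRNA1680, read -0.35, -0.51 and -0.57 in sEV-BAT and 0.08, 0.22 and 0.23 in sEV-WAT. The - probe was thus the brighter on every sEV-BAT array and the dimmer on every sEV-WAT array (change -0.65, SE 0.16, limma adjusted p = 0.0663 over all strand pairs).

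Few members differed 2-fold or more between the vesicles. A probe was called where the fold change was at least 2 and the unadjusted limma p at most 0.05, the thresholds given in the methods. Of the 892 humanlincRNA probes tested, 8 were called higher in sEV-BAT, beside a background of 1.11% of all 54447 probes tested, and 15 were called lower, beside 1.16%. These are 0.897% and 1.68% of the members, close to the background. An adjusted p of at most 0.05, by Benjamini-Hochberg over all probes tested, was reached by 82 members, or 9.19%, against 7.61% of all probes, and an unadjusted p of at most 0.05 by 273, or 30.6%, against 28.8%. The sEV-BAT and sEV-WAT values did not overlap in 129 members with sEV-BAT higher, or 14.5%, which equals the 14.5% over all probes, and in 185 with sEV-BAT lower, or 20.7%, against 21.8%. The median difference was -0.03 over the members and -0.02 over all probes, and the range over the members was -1.33 to 1.79. Every one of these shares lies near its background, so none is a result particular to these lincRNAs.

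The balance of higher and lower calls rests on how the arrays are put on 1 scale. Without normalization between arrays, where the median of all probes tested lies 0.62 log2 units higher in sEV-BAT, 182 members were called higher and 0 lower, and with subtraction of each array's 75th percentile, where that median lies 0.13 higher, 26 were higher and 6 lower. Over all 54447 probes tested, these counts were 8885 and 48 without normalization and 1508 and 379 with the percentile subtracted. Leaving out sEV-BAT 2 gave 29 higher and 30 lower, leaving out sEV-BAT 1 gave 17 and 14, and leaving out sEV-WAT 1 gave 18 and 20. In the same order, the counts over all probes were 1411 and 1109, 1243 and 844, and 721 and 863. No member reached an adjusted p of 0.05 with the slide as a block (128 at an unadjusted p of 0.05) or with sEV-BAT 3, sEV-WAT 1, sEV-WAT 2 or sEV-WAT 3 left out (203 to 260 at that unadjusted p). In each of these settings no other probe of the array reached it either.

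Of the 8 members called higher in sEV-BAT, 5 were + probes and 3 were - probes, and 6 were bright enough to be detected on every array. The largest difference belonged to humanlincRNA1030-, at 8.14, 8.16 and 9.03 in sEV-BAT and 6.73, 6.58 and 6.66 in sEV-WAT. All sEV-BAT values exceeded all sEV-WAT values, by 1.79 on the log2 scale or 3.45-fold. The study chose humanlincRNA1030 as a candidate from these same arrays, so this difference is a description without a test. The study also reported, by qPCR, that humanlincRNA1030 was enriched in sEV-BAT over sEV-WAT. On the arrays the difference kept its direction and the 2-fold size under every alternative run, with values from 1.37 to 2.29. The + partner read 7.97, 8.41 and 7.95 in sEV-BAT and 8.24, 8.00 and 7.89 in sEV-WAT, and these overlapped.

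Next in size among those detected throughout were humanlincRNA0848+ and humanlincRNA0158-. humanlincRNA0848+ was bright, at 12.44, 12.99 and 12.89 in sEV-BAT and 12.09, 11.45 and 11.19 in sEV-WAT. The groups did not overlap, though sEV-WAT 1 came close to sEV-BAT 1, and the difference was 1.20 (SE 0.27, limma adjusted p = 0.0501). humanlincRNA0158- read 10.05, 10.40 and 10.46 in sEV-BAT and 9.52, 9.14 and 8.66 in sEV-WAT, again without overlap (difference 1.20, SE 0.24, limma adjusted p = 0.0429). humanlincRNA2274+ read 12.26, 12.71 and 12.52 in sEV-BAT and 11.70, 11.25 and 11.14 in sEV-WAT. It was higher on every sEV-BAT array (difference 1.14, SE 0.19, limma adjusted p = 0.0358).

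humanlincRNA0825- and humanlincRNA1735+ completed the detected calls. The first had 9.64, 9.87 and 10.07 in sEV-BAT and 8.88, 8.83 and 8.68 in sEV-WAT, and the second 8.98, 9.34 and 8.76 against 8.46, 7.75 and 7.70. Neither overlapped, with differences of 1.07 (SE 0.14, limma adjusted p = 0.0332) and 1.06 (SE 0.25, limma adjusted p = 0.0576). With the slide as a block the differences at humanlincRNA0848+, humanlincRNA0158-, humanlincRNA2274+ and humanlincRNA0825- were 0.86, 0.94, 0.90 and 0.85, below 2-fold. The call at humanlincRNA0158- was lost without sEV-WAT 3, that at humanlincRNA0825- without sEV-BAT 3, and that at humanlincRNA1735+ without sEV-BAT 2, sEV-WAT 2 or sEV-WAT 3.

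The remaining 2 calls were dim probes. humanlincRNA0183+ read 3.37, 3.06 and 2.57 in sEV-BAT and 1.99, 0.89 and 2.31 in sEV-WAT, and humanlincRNA0561+ read 3.37, 3.32 and 3.29 in sEV-BAT and 2.50, 2.60 and 1.50 in sEV-WAT. Both were well above background on all 3 sEV-BAT arrays and not on any sEV-WAT array, so their level in sEV-WAT has only an upper bound. Taken against the lowest signals that counted as well above background on the sEV-WAT arrays, humanlincRNA0561+ was 1.02-fold higher in sEV-BAT. No fold is given for humanlincRNA0183+, whose sEV-BAT mean lay below those signals. The limma adjusted p of the measured difference was 0.0679 for humanlincRNA0561+ and 0.101 for humanlincRNA0183+. Each of these calls was also lost with 2 of the alternatives that change the values, normexp background correction and the deposited normalized table. Leaving out sEV-BAT 1 or sEV-WAT 2 also ended the call at humanlincRNA0183+, and leaving out sEV-WAT 3 that at humanlincRNA0561+.

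The 15 members called lower in sEV-BAT held 5 + probes and 10 - probes, with mean levels over the 6 arrays from 3.07 to 13.63. humanlincRNA1114- had the largest difference, with 7.42, 7.30 and 7.04 in sEV-BAT and 8.40, 8.47 and 8.87 in sEV-WAT. All sEV-WAT values were higher, and the difference of -1.33 (SE 0.17, limma adjusted p = 0.0332) lay between -1.42 and -1.18 with each array left out. humanlincRNA1587- read 11.05, 10.62 and 10.08 in sEV-BAT and 11.28, 12.41 and 12.05 in sEV-WAT. Here sEV-WAT 1 was close to sEV-BAT 1, the difference was -1.32 (SE 0.36, limma adjusted p = 0.0741), and with the slide as a block it was -0.86. humanlincRNA0525+ was dim, at 3.35, 3.83 and 2.87 in sEV-BAT and 4.72, 4.57 and 4.72 in sEV-WAT. Its groups did not overlap (difference -1.32, SE 0.24, limma adjusted p = 0.0389).

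Further down, humanlincRNA2019- read 5.86, 6.01 and 5.49 in sEV-BAT against 7.19, 6.88 and 6.93 in sEV-WAT, and humanlincRNA0817- read 3.89, 3.85 and 3.65 against 4.99, 5.20 and 4.81. Both were lower on every sEV-BAT array, by 1.22 (SE 0.17) and 1.20 (SE 0.13), each with a limma adjusted p of 0.0332. humanlincRNA1153- read 7.01, 7.27 and 6.70 in sEV-BAT and 7.84, 8.27 and 8.36 in sEV-WAT, without overlap (difference -1.16, SE 0.20, limma adjusted p = 0.0371). The brightest member called lower was humanlincRNA0955+, at 13.23, 13.06 and 12.94 in sEV-BAT and 13.47, 14.67 and 14.44 in sEV-WAT. sEV-WAT 1 stood apart from the other sEV-WAT arrays and near sEV-BAT (difference -1.12, SE 0.32, limma adjusted p = 0.0799). humanlincRNA1431+ had the same order of arrays, at 12.87, 12.68 and 12.45 in sEV-BAT and 13.23, 14.06 and 13.94 in sEV-WAT (difference -1.08, SE 0.24, limma adjusted p = 0.0514).

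The other 7 calls had differences between -1.11 and -1.03. They were humanlincRNA1828-, humanlincRNA1341-, humanlincRNA1050-, humanlincRNA2019+, humanlincRNA2265+, humanlincRNA2278- and humanlincRNA0043-. The most even replicates were at humanlincRNA0043-, with 4.36, 4.39 and 4.45 in sEV-BAT and 5.29, 5.50 and 5.48 in sEV-WAT. The gap between its groups was thus wider than the spread within either (difference -1.03, SE 0.10, limma adjusted p = 0.0332). humanlincRNA1341- was well above background on 1 sEV-BAT array and all 3 sEV-WAT arrays. humanlincRNA2265+, detected on 1 sEV-BAT and 2 sEV-WAT arrays, was the call whose groups overlapped. With the slide as a block the differences at humanlincRNA0955+, humanlincRNA1431+, humanlincRNA1828-, humanlincRNA2019+ and humanlincRNA2265+ were -0.96, -0.88, -0.98, -1.13 and -1.09, and none of these 5 was called. Leaving out an array ended some of the lower calls. Those at humanlincRNA0955+ and humanlincRNA0043- were lost without sEV-WAT 2 or sEV-WAT 3, that at humanlincRNA1431+ also without sEV-BAT 3, those at humanlincRNA1828-, humanlincRNA1341- and humanlincRNA1050- without sEV-WAT 1, that at humanlincRNA2278- without sEV-BAT 1, and that at humanlincRNA2265+ without any 1 of sEV-BAT 1, sEV-BAT 3, sEV-WAT 1 and sEV-WAT 2.

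Of the 23 calls, 14 had an adjusted p of at most 0.05 and 22 had groups that did not overlap. The call held with each array left out in turn for 9, humanlincRNA0525+, humanlincRNA0817-, humanlincRNA0848+, humanlincRNA1030-, humanlincRNA1114-, humanlincRNA1153-, humanlincRNA1587-, humanlincRNA2019- and humanlincRNA2274+. With the slide as a block 10 of the 23 were lost. Since slide 2 held sEV-BAT arrays alone, that estimate comes from slide 1, where the single array sEV-BAT 1 is set against the sEV-WAT arrays, and it is equal to the estimate within slide 1. None of the lower calls held without normalization between arrays, where humanlincRNA2019+ and humanlincRNA2265+ had differences of 0.035 and 0.14 in the opposite direction.

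Another 21 members differed at least 2-fold without passing the p threshold, 19 of them higher in sEV-BAT. In 14 of these 19 the highest value was on sEV-BAT 3, in 4 on sEV-BAT 2 and in 1 on sEV-BAT 1. The matching counts over all probes were not taken, so neither imbalance is a result particular to these lincRNAs. The widest spread was at humanlincRNA1546, named after its values were seen. Its + probe read 10.64, 13.80 and 9.70 in sEV-BAT and 10.27, 9.50 and 9.38 in sEV-WAT, and its - probe read 6.79, 4.87 and 7.66 against 4.61, 4.79 and 5.27. sEV-BAT 2 was the highest array for the + probe and the lowest sEV-BAT array for the - probe, so that the replicates disagreed by more than the groups did (differences 1.66 and 1.55, limma adjusted p = 0.338 and 0.200). Without sEV-BAT 2 the difference was 0.45 at the + probe and 2.33 at the - probe, whose remaining values did not overlap and which was then called.

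A detection call split the groups cleanly for 23 members, 14 + and 9 -, which every sEV-BAT array and 0 sEV-WAT arrays placed well above background. This is 2.11% of the members against 1.25% of all probes. The reverse, all 3 sEV-WAT and 0 sEV-BAT arrays, was met by 0 members and 0.00658% of all probes, and the greater brightness of the sEV-BAT arrays moved with this asymmetry. All 23 were dim, with mean log2 intensities in sEV-BAT of 2.96 to 3.74. Their differences after normalization ran from -0.13 to 1.27, 7 of the 23 had groups that did not overlap, and none was at least 2-fold higher once its sEV-WAT level was set at the bound, the highest such value being 1.28-fold. That was humanlincRNA0406-, with 3.71, 3.60 and 3.68 in sEV-BAT and 3.11, 2.86 and 3.38 in sEV-WAT. Its values did not overlap, and its limma adjusted p of 0.0729 belongs to the measured difference and not to the 1.28-fold against the bound. In 17 of the 23 the partner on the other strand was detected on all 6 arrays.

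The differences of the partners of a pair between the vesicles were nearly unrelated in size across pairs. Among the 356 pairs, the sEV-BAT minus sEV-WAT differences of the + and - probe had the same sign in 190 and opposite signs in 166, with an r of 0.042 across pairs. The share with the same sign was 53.4%, against 53.2% of all strand pairs. Both partners had an unadjusted limma p of at most 0.05 in 29 pairs, 16 with the same sign and 13 with opposite signs, 1 partner in 150 pairs and neither in 177. These are 8.15%, 42.1% and 49.7% of the pairs, against 8.33%, 41.5% and 50.2% of all 564 strand pairs of the array, which include them. In 17 pairs, or 4.78%, 1 partner was called, against 5.85% of all strand pairs. Both were called in 1 pair, or 0.281%, against 0.177%.

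That pair was humanlincRNA2019. Its + probe was dim, at 2.70, 3.03 and 2.57 in sEV-BAT and 3.21, 4.24 and 4.04 in sEV-WAT, and was well above background on 2 arrays of each group. All sEV-WAT values were higher, by 1.06 on average (SE 0.29, limma adjusted p = 0.0741), beside the 1.22 of its - probe given above. The strand difference was -3.16, -2.98 and -2.92 in sEV-BAT and -3.98, -2.64 and -2.90 in sEV-WAT, and these overlapped (change 0.15, limma adjusted p = 0.825 over all strand pairs). The call at the + probe was lost without sEV-BAT 3, sEV-WAT 2 or sEV-WAT 3. At humanlincRNA1050, described after its values were seen, both probes were lower on all sEV-BAT arrays, the + probe with 11.39, 11.35 and 11.26 against 11.87, 11.92 and 11.95 (difference -0.58, limma adjusted p = 0.0332). Its - probe read 8.41, 8.54 and 8.40 against 9.71, 9.36 and 9.52 (difference -1.08, SE 0.12, limma adjusted p = 0.0332).

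The binding of each probe is the same on every array, so the change of the strand difference from sEV-WAT to sEV-BAT was tested. Such a change stands for strand balance only if bright and dim probes respond alike across intensities, which was not tested. The test used limma over the 564 strand pairs of the array with both probes past the filter, of which the 356 humanlincRNA pairs are themselves the larger share. A change of at least 1 log2 unit with an unadjusted p of at most 0.05 was found in 37 of the 356 pairs, 24 towards + in sEV-BAT, or 6.74%, and 13 towards -, or 3.65%. Over all strand pairs these shares were 6.91% and 3.55%. After adjustment over all strand pairs 9 passed, or 2.53%, against 2.66%, and 100 had an unadjusted p of at most 0.05, or 28.1%, against 28.4%. The groups did not overlap with sEV-BAT higher in 66 pairs, or 18.5%, against 18.6%, and with sEV-BAT lower in 48, or 13.5%, against 15.2%. The median change was 0.02, and the largest in size, -2.25 at humanlincRNA1366, did not pass (limma adjusted p = 0.282).

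In 33 of the 37 pairs the + and - probes differed between the groups in opposite directions. A large change of the strand difference itself favours this, so the count is a description of the pairs selected. Both probes passed an unadjusted p of 0.05 in 11. The + probe alone passed in 12, the - probe alone in 11 and neither in 3. The gap between the partners was wider in sEV-BAT in 17 of the 37 and wider in sEV-WAT in 20. In 25 of the 37 both probes were detected on all 6 arrays. The count of 37 was 13 with normexp background correction, 22 with the slide as a block and 60 without sEV-BAT 2. Over all strand pairs, the matching count of 59 was 27, 35 and 89 in the same order.

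The lowest adjusted p belonged to humanlincRNA1114, whose strand difference was 3.04, 3.18 and 3.30 in sEV-BAT and 1.58, 1.67 and 1.25 in sEV-WAT. The groups were far apart, with a change of 1.67 (SE 0.19, limma adjusted p = 0.0254), and the change stayed between 1.42 and 1.76 under every alternative run. It joins a lower - probe, given above, to a + probe of 10.46, 10.48 and 10.34 in sEV-BAT and 9.98, 10.14 and 10.12 in sEV-WAT, which was higher on every sEV-BAT array (difference 0.34, limma adjusted p = 0.074).

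The remaining 6 pairs with a change towards + and an adjusted p of at most 0.05 were humanlincRNA0817, humanlincRNA2345, humanlincRNA2207, humanlincRNA0933, humanlincRNA1003 and humanlincRNA2274. At humanlincRNA0817 the strand difference was 7.22, 7.41 and 7.67 in sEV-BAT and 6.08, 5.89 and 6.19 in sEV-WAT, without overlap (change 1.38, SE 0.19, limma adjusted p = 0.027). At humanlincRNA0933 it was 7.43, 7.13 and 7.24 against 6.23, 5.99 and 5.99 (change 1.19, SE 0.18, limma adjusted p = 0.027). There the - probe moved most, from 6.13, 6.30 and 6.10 in sEV-WAT to 5.07, 5.48 and 5.24 in sEV-BAT. At humanlincRNA2207 it was the + probe, from 11.71, 11.34 and 11.29 in sEV-WAT to 12.04, 12.37 and 12.47 in sEV-BAT (change of the strand difference 1.23, SE 0.18, limma adjusted p = 0.027).

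At humanlincRNA2274 and humanlincRNA2345 the - probe was the brighter one, so a change towards + narrowed the gap. The strand difference of humanlincRNA2274 was -1.09, -0.50 and -0.78 in sEV-BAT and -1.83, -2.24 and -2.32 in sEV-WAT, and that of humanlincRNA2345 was -7.30, -7.01 and -7.21 against -8.46, -8.53 and -8.26. Neither overlapped, with changes of 1.34 (SE 0.23, limma adjusted p = 0.0411) and 1.24 (SE 0.18, limma adjusted p = 0.027). humanlincRNA1003 changed from 1.98, 1.80 and 1.58 in sEV-WAT to 2.78, 3.21 and 3.16 in sEV-BAT (change 1.26, SE 0.20, limma adjusted p = 0.0349), which was no longer called with the slide as a block. The calls at humanlincRNA0817, humanlincRNA0933 and humanlincRNA2345 were lost with normexp background correction. The + probe of humanlincRNA2345 was well above background on 5 of the 6 arrays.

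Towards -, 2 pairs had an adjusted p of at most 0.05. humanlincRNA2257 had a strand difference of -6.81, -6.48 and -6.81 in sEV-BAT and -5.76, -5.14 and -5.00 in sEV-WAT, without overlap (change -1.40, SE 0.25, limma adjusted p = 0.0424). Its - probe was higher on every sEV-BAT array, at 9.36, 9.60 and 9.34 against 8.73, 8.62 and 8.70, while its + probe was detected on 3 of the 6 arrays. humanlincRNA0171 read -3.53, -3.42 and -3.62 in sEV-BAT and -2.61, -2.35 and -2.27 in sEV-WAT (change -1.11, SE 0.18, limma adjusted p = 0.0339). Both calls were lost without normalization between arrays, with the 75th percentile subtracted and with normexp background correction.

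Other named pairs were called without reaching an adjusted p of 0.05. Towards + these were humanlincRNA0083, humanlincRNA0848 and humanlincRNA0490, with changes of 1.98, 1.59 and 1.50 (limma adjusted p = 0.158, 0.0548 and 0.052). humanlincRNA0183 was also called (limma adjusted p = 0.0625), but no size is given for it because no sEV-WAT array detected its + probe. humanlincRNA0083 had the largest, from -5.73, -4.72 and -3.37 in sEV-WAT to -1.85, -4.02 and -2.01 in sEV-BAT. Its groups overlapped, since sEV-BAT 2 lay below sEV-WAT 3, and the call was lost without sEV-BAT 1, sEV-BAT 3, sEV-WAT 1 or sEV-WAT 2. The + probe of humanlincRNA0083 was well above background on all 3 sEV-BAT arrays but on only 1 sEV-WAT array. Its change thus rests in part on signal that was not detected. humanlincRNA0490 combined a + probe higher in sEV-BAT, at 9.27, 9.54 and 9.54 against 8.88, 8.73 and 8.60, with a - probe detected on 4 of the 6 arrays. With the slide as a block its change was 0.94 and that of humanlincRNA0848 was 1.16, and neither was called.

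Towards - these were humanlincRNA0955, humanlincRNA2355 and humanlincRNA1576, with changes of -1.51, -1.26 and -1.17 (limma adjusted p = 0.0797, 0.0523 and 0.145). humanlincRNA0955 read 2.15, 1.81 and 1.68 in sEV-BAT and 2.43, 3.95 and 3.79 in sEV-WAT, so that both strands were bright and the + excess was smaller in sEV-BAT, with sEV-WAT 1 again close to the sEV-BAT values. With the slide as a block its change was -1.24 and was not called. The call at humanlincRNA1576 was lost without any 1 of the arrays other than sEV-BAT 2. At humanlincRNA2355 the + probe was well above background on 4 of the 6 arrays. For humanlincRNA1030 the strand difference was -0.18, 0.25 and -1.08 in sEV-BAT and 1.51, 1.42 and 1.22 in sEV-WAT. The - probe was brighter than the + probe on 2 of the 3 sEV-BAT arrays and dimmer on all 3 sEV-WAT arrays, a change of -1.72 that follows from the choice of this candidate and is given without a test.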

How the data were processed

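Small extracellular vesicle RNA was hybridised to 6 one-colour arrays, 3 sEV-BAT and 3 sEV-WAT, grouped by the sample labels. Per the file headers, Agilent Feature Extraction 11.0.1.1 gave a background-corrected intensity for each of 62976 spots, and the deposited table holds the authors' quantile normalized log2 values, used as an alternative. Its columns have a median of 6.15 on every array and keep the rank order of the scanner signals (Spearman's rho across probes 0.9995 or more), so that scale and direction are settled and no gene was centred.

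From the processed intensity, log2 values were taken, outlier spots (none on a humanlincRNA probe) and the 1439 control spots were left out, spots of 1 probe were averaged and arrays were quantile normalized. A probe entered the test where 3 or more of the 6 arrays marked it well above background. The fit used limma 3.58.1 in R 4.3.3 (moderated test, two-sided, Benjamini-Hochberg adjustment over all 54447 probes tested, or over the 564 strand pairs). Calls needed a 2-fold change and a p of 0.05 or less before adjustment. The scripts were checked on simulated data with 200 changed features. The alternatives were other normalizations, background corrections, filters, blocks, the methods' t-test and each array left out. The bound for a probe not well above background in a group uses, per array, the higher of its own signal and the lowest signal counted as well above background.

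The members were picked by name, without a measured value, but this set and the lists of probes were chosen with earlier results of these data known. Probes described singly are humanlincRNA1030, the 10 largest non-overlapping calls in each direction, the 5 brightest, the 5 pairs at each end of the strand difference and of its change, and pairs with both probes called. The remaining calls, and pairs past the adjusted p, were added after their values were seen. Replicate numbers were not used to pair the arrays.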

Additional observations from a re-analysis of the deposited data

How the results depend on the processing

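The counts of members called higher and lower in sEV-BAT, 8 and 15, were 182 and 0 without normalization between arrays. They were 26 and 6 with the 75th percentile subtracted and 4 and 5 with normexp background correction. With the slide as a block they were 4 and 16. An alternative within slide 1, chosen after seeing the data, rests on the same contrast of sEV-BAT 1 with sEV-WAT. It assumes that this single array varies like the others, so its counts are not given. With each array left out the counts of calls ranged from 7 to 29 higher and from 10 to 30 lower. Over all 54447 probes tested, 606 and 630 were called. These were 8885 and 48 without normalization and 1508 and 379 with the percentile subtracted. They were 189 and 337 with normexp and 215 and 427 with the slide as a block. The 82 members past the adjusted p became 582 without normalization, 124 with normexp, 128 with an intensity trend, 37 with dim probes kept, 1 with the methods' t-test (247 at an unadjusted p of 0.05), and 0 with the slide as a block (128), within slide 1 (187) and with the replicate block (239). With each array left out they ranged from 0 to 96. With the slide or the replicate block, no other probe of the array passed the adjusted p either. The 37 strand pairs that changed were 13 with normexp and 22 with the slide as a block, and 28 to 60 with each array left out. Over all strand pairs 59 changed, against 27 with normexp, 35 with the slide as a block and 43 to 89 with each array left out. The step in detected probes, 85.3, was 54 by the positive and significant flag and 71.5 to 94 with each array left out. The median strand difference, -0.10, was 0.14 over pairs detected on all 6 arrays and -0.15 to -0.06 with each array left out. Opposite directions were found at humanlincRNA2019+ (0.035) and humanlincRNA2265+ (0.14) without normalization and at the pair humanlincRNA1546 (-1.88 without sEV-BAT replicate 2, against 0.11 over all arrays and up to 1.56 without sEV-BAT replicate 3). Where an alternative drops arrays or spends degrees of freedom on a block, fewer remain for the test, and for the other changes the cause was not tested.

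With the replicate number as a block, a paired analysis, 9 members were called higher and 15 lower, 0 passed the adjusted p, and 38 strand pairs changed. Over all probes tested 662 and 622 were called, and over all strand pairs 59 changed. Same-numbered arrays had correlations of their deviations from the group means of -0.25, -0.09 and 0.22, mixed in sign, and whether they share mice is not stated, so the numbers were not used as pairs. Among the 23 calls 1 held under every alternative, and 14 were lost with normexp and 4 with the deposited values. The call that held was humanlincRNA1030-, the candidate that the study chose from these same arrays. Of 17 changed pairs described, 4 held under every alternative, the candidate pair humanlincRNA1030 among them, and 15 with each array left out. Signal near background limits the dim probes, and the sEV-WAT level is a bound for the 23 probes detected on all sEV-BAT and no sEV-WAT arrays.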
